A study of Homo sapiens with 4 samples.

Results

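The comparison described here set the messenger RNA levels of LvM3b colon cancer cells over-expressing the microRNA miR-551a against those of the LvM3b control culture, with 1 bead array each. A gene entered when its probe was detected, at a Detection score above 0.99, on at least 1 of these 2 arrays. This gave 9619 of the 18665 genes named on the array. Over all 4 arrays of the series, 10095 genes met the same rule on at least 1 array. The other 2 arrays held LvM3b cells over-expressing miR-483 and a culture labelled Ls-Parental, whose own cell line entry also reads LvM3b. All 4 cultures were colon adenocarcinoma cells kept in DMEM with 10% FBS, glutamine, sodium pyruvate, penicillin-streptomycin and fungizone, and their RNA was taken at about 70% confluency. The control is labelled only as a control. How miR-551a was over-expressed, and whether that culture came from 1 clone, is not stated in the sources used here.

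MicroRNAs are short RNAs that guide Argonaute proteins to messenger RNAs, mainly by pairing between the bases of their seed and the 3′ untranslated region, and they lower the stability or the translation of these targets. Many of the genes described below belong to the amino acid response. In that response, phosphorylation of the translation factor eIF2 raises the synthesis of the transcription factor ATF4, which with C/EBP partners binds C/EBP-ATF response elements near genes of amino acid synthesis, amino acid transport and tRNA charging. DDIT4 and TRIB3 are ATF4-dependent brakes on growth signalling, and CHAC1 is an ATF4-dependent enzyme that breaks down glutathione.

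The sequences of miR-551a and of the only other mature human microRNA with its seed are shown because microRNAs find messenger RNAs mainly through the seed. They come from RefSeq (GRCh38.p14), are written 5′ to 3′, and carry the seed, bases 2 to 8, in capitals.
hsa-miR-551a chr1:3560710-3560730, minus strand: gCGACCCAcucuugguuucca
hsa-miR-551b-3p chr3:168551914-168551934, plus strand: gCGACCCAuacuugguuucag
Both mature forms have 21 bases, of which 17 are alike position by position, and 2 of the 2545 mature human microRNAs in the table hold the seed CGACCCA. A perfect match to it in a messenger RNA reads UGGGUCG. The miR-551a gene, MIR551A (chr1:3560695-3560790), lies within the coordinates of MEGF6, a gene of a protein with EGF-like repeats (chr1:3487951-3624786). No probe of the array was named for MIR551A or MEGF6, so the over-expression itself was not measured here. Messenger RNA 3′ ends were not searched for seed matches.

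Of 48803 probes on each array, 13861 were detected in the control and 14447 with miR-551a, and Pearson's r between the 2 arrays over all probes was 0.993. The median deposited signal was 115.4 in the control and 103.6 with miR-551a. There was 1 array per culture, so no spread between cultures could be estimated, no test was possible and no p-value is given. The number of arrays limits the precision of every value. Differences below are log2 normalized levels with miR-551a minus the control, and a fold is the same difference on a linear scale. A level in RNA from a whole culture does not separate fewer cells expressing a gene from less RNA per cell. Of 10 colon epithelium markers, 9 were detected on each array, with KRT20 not detected. No endothelial marker of 4 was detected. Of 9 fibroblast markers 4 were detected in the control and 5 with miR-551a, of 6 immune markers on the array 2 on each, and of 9 hepatocyte markers 2 on each. PTPRC, CD3E, CD14, ALB, COL1A1 and COL1A2 were detected on neither array. Detected on at least 1 array were the immune markers CD68 and LYZ and the hepatocyte markers FGA and SERPINA1. So were the fibroblast markers COL3A1, LUM, PDGFRA, ACTA2 and FAP. LYZ is also on the Paneth cell list used here. The summed deposited signal of the 6 immune markers was 1678.7 in the control and 1457.6 with miR-551a, and that of the 9 fibroblast markers was 2044.6 and 1818.1. That of the 10 colon epithelium markers was 115891.6 and 100373.8. These sums are not normalized and include probes that were not detected. Each was lower on the miR-551a array, whose median deposited signal was also lower.

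Most messenger RNAs lay close together on the 2 arrays. Of the 9619 genes, 9112 were detected on both arrays, 387 with miR-551a only and 115 in the control only. For a further 5, other probes of the gene were detected on the second array, and these 5 are kept at their measured value. Over all 9619 genes the median difference was 0.01 and 48.84% were lower with miR-551a. The 1.5-fold threshold was passed by 210 lower (2.18%) and 195 higher genes (2.03%). At 2-fold the counts were 35 lower (0.364%) and 21 higher (0.218%). Of the 195 higher genes, 114 were not detected in the control, and of the 210 lower genes, 72 were not detected with miR-551a. The lowest detected signal was higher in the control (178.2, log2 level 6.38) than with miR-551a (146.5, log2 level 6.19). Among the genes detected on both arrays, the 1.5-fold threshold was passed by 138 lower (1.51%) and 81 higher genes (0.889%), and the 2-fold threshold by 14 lower (0.154%) and 2 higher genes (0.0219%). In the authors' processed values, which are scaled to 1 median and keep the background, 78 lower and 27 higher genes passed 1.5-fold. Among 6958 genes with a mean log2 level of at least 8, 73 lower (1.05%) and 33 higher genes (0.474%) passed 1.5-fold, and 6 lower (0.0862%) and 0 higher genes passed 2-fold.

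The size of a difference depended on the level. The SD over genes of the log2 difference was 0.31 for genes with a mean log2 level from 6 to 7 and 0.19 for those from 12 to 17. Of the 745 dimmest genes detected on both arrays, 3.89% passed 1.5-fold downwards and 2.28% upwards. Of the 1057 brightest, 0.473% and 0.284% did. A 1.5-fold difference is 0.585 on the log2 scale. At the detection threshold, 49 genes had a best score of 0.99078, just inside, with differences from -0.93 to 1.06, and 17 genes had a best score of 0.98946, just outside, with differences from -0.19 to 1.11.

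**Figure D1:**
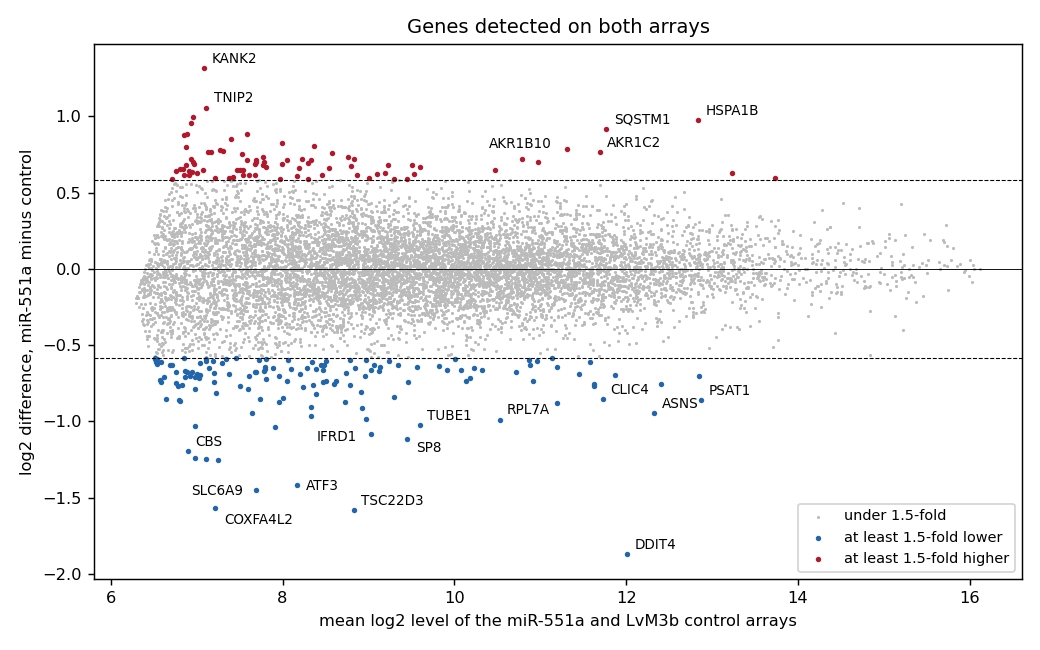
Log2 difference between the miR-551a and LvM3b control arrays (vertical axis) against their mean log2 level (horizontal axis) for the 9112 genes detected on both arrays, 1 point per gene. Dashed lines mark 1.5-fold. Blue points are the 138 lower and red points the 81 higher genes, and DDIT4 lies lowest at -1.87, far from other genes of its level.

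Genes of the amino acid response were lower with miR-551a as a group. The ATF4 list names 21 genes, of which 19 are on the array and 17 were detected. Of these, 16 were lower, 11 of them by at least 1.5-fold and 4 by at least 2-fold. The median difference of the 17 was -0.65, against 0.01 for all genes. Over all genes 48.84% were lower, 2.18% by at least 1.5-fold and 0.364% by at least 2-fold. The 4 include CHAC1 and INHBE at their measured values, although neither was detected with miR-551a. With bounds 11 again passed 1.5-fold. DDIT4, an inhibitor of mTORC1 signalling, had a log2 level of 12.94 in the control, 11.07 with miR-551a, 12.30 with miR-483 and 13.20 in Ls-Parental. The miR-551a array held the lowest of the 4 levels, and the 3.66-fold difference from the control was the furthest downward difference among all genes detected on both arrays. The deposited signals behind it, before any normalization, were 8724.8 in the control and 2164.4 with miR-551a.

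Of the 7 transcription factors on the list, 6 were lower, with a median of -0.61. ATF4 itself, among the brightest probes, had levels of 15.12 in the control, 14.55 with miR-551a, 14.79 with miR-483 and 15.11 in Ls-Parental. The control and Ls-Parental stood level and the miR-551a array was lowest, 1.48-fold below the control. The 3 ATF4 probes detected on both arrays differed by -0.57, -0.50 and -0.04. ATF3, a stress-induced repressor that ATF4 activates, had 8.88, 7.46, 8.35 and 9.53 on the same 4 arrays in that order. Again the miR-551a array was lowest, 2.67-fold under the control. DDIT3, known as CHOP, a partner of C/EBP proteins in stress-induced cell death, had 8.81, 7.84, 8.40 and 9.96, which put it 1.95-fold lower with miR-551a. CEBPB and CEBPG, the C/EBP partners of ATF4, differed by -0.61 and -0.43, and NUPR1, a small stress-induced chromatin protein, by -0.67. ATF5, a relative of ATF4, was the single member that was higher, at 0.30.

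Among the regulators that act back on translation and growth, all 4 detected members were lower. TRIB3, a pseudokinase that restrains AKT and ATF4, had a level of 12.01 in the control, 11.24 with miR-551a, 11.45 with miR-483 and 12.81 in Ls-Parental. PPP1R15A, the phosphatase subunit that restores eIF2 activity, differed by -0.53, and EIF4EBP1, a repressor of cap-dependent translation, by -0.27. The difference was thus furthest for DDIT4 and TRIB3 and under 1.5-fold for the other 2.

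All 6 detected secreted and effector genes were lower, 5 by at least 1.5-fold. CHAC1 was detected in the control at 7.31 and not detected with miR-551a, where its probe read 5.29 (Detection score 0.9473), and it was 7.13 with miR-483 and 7.92 in Ls-Parental. With miR-551a CHAC1 was at least 2.18-fold lower than in the control. INHBE, an inhibin beta subunit secreted under stress, was likewise detected in the control only, with levels of 6.93 and 5.33. The second lies below the lowest level detected with miR-551a, 6.19, so the distance between them is not a bound. STC2, a stanniocalcin hormone of the secretory pathway, had 11.63 in the control, 10.75 with miR-551a, 11.35 with miR-483 and 12.10 in Ls-Parental. Its miR-551a level was the lowest of the 4, 1.84-fold under the control. GDF15, a stress-induced cytokine, differed by -0.60, VEGFA, the vascular growth factor, by -0.65, and the lipoprotein receptor VLDLR by -0.37.

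**Figure D2:**
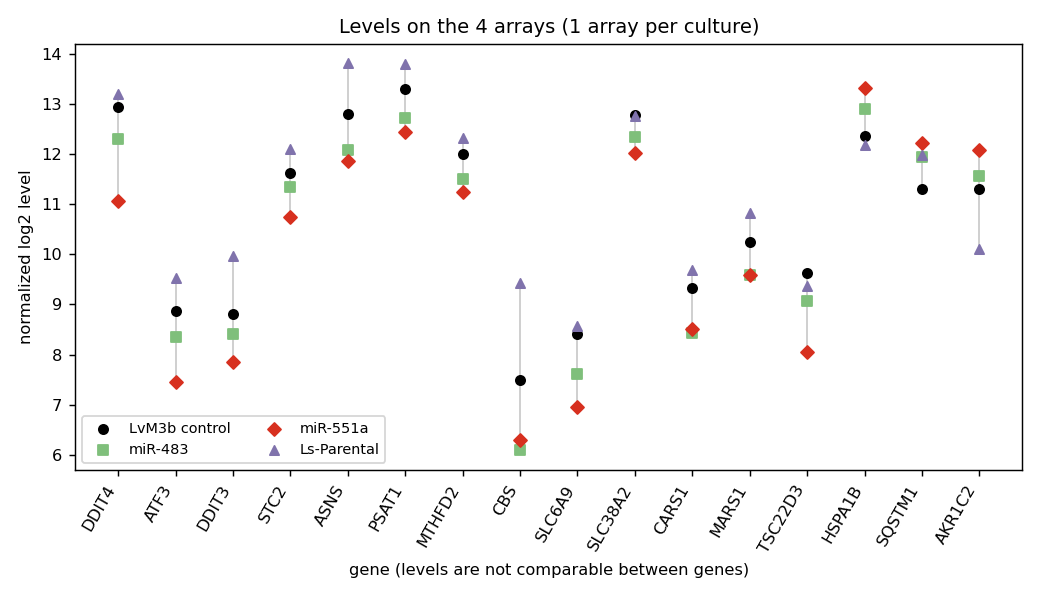
Normalized log2 level (vertical axis) of 16 genes on the 4 arrays, 1 point per array and 1 array per culture. Grey lines join the lowest and the highest array of each gene. The miR-551a points lie lowest for DDIT4, ATF3 and TSC22D3, and highest for HSPA1B, SQSTM1 and AKR1C2.

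Amino acid synthesis divided by pathway. All 3 genes of serine synthesis were lower, with a median of -0.51. PSAT1, the aminotransferase of that pathway, had 13.30 in the control, 12.45 with miR-551a, 12.72 with miR-483 and 13.80 in Ls-Parental. PHGDH, which makes the first committed step, differed by -0.51, and PSPH, the final phosphatase, by -0.45. In the folate-dependent steps downstream, the mitochondrial enzymes MTHFD2 (-0.75), SHMT2 (-0.40) and MTHFD1L (-0.29) were lower, while SHMT1, the cytosolic counterpart of SHMT2, differed by 0.04 and TYMS, thymidylate synthase, by 0.39. MTHFD2 was 1.68-fold lower, the only 1 of the 6 detected genes of that cycle past 1.5-fold.

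ASNS, asparagine synthetase, had 12.80 in the control, 11.86 with miR-551a, 12.07 with miR-483 and 13.81 in Ls-Parental. Both microRNA arrays lay under both other arrays, and the miR-551a level was 1.93-fold below the control. A second ASNS probe differed by -0.57, with 9.44 in the control, 8.87 with miR-551a, 7.46 with miR-483 and 10.95 in Ls-Parental. The proline enzymes PYCR1 and ALDH18A1 differed by -0.11 and 0.09. CBS, which condenses homocysteine with serine, had 7.49 in the control, 6.30 with miR-551a, 6.09 with miR-483 and 9.42 in Ls-Parental, so it was 2.29-fold lower with miR-551a at a level close to the lowest detected there, 6.19. The other 5 genes of transsulfuration and glutathione synthesis, CTH, GCLC, GCLM, GSS and GSR, lay between -0.06 and 0.31. Over the whole list of 18 detected genes the median was -0.14, with 4 genes past 1.5-fold downwards and 0 upwards. Of all genes 2.18% and 2.03% were.

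Of 15 detected amino acid transporter genes, 11 were lower, 3 by at least 1.5-fold, and the median was -0.43. Over all genes 48.84% were lower and 2.18% at least 1.5-fold lower. SLC6A9, the glycine transporter GLYT1, had 8.41 in the control, 6.96 with miR-551a, 7.61 with miR-483 and 8.57 in Ls-Parental. It was 2.73-fold lower with miR-551a, the furthest of the list. SLC38A2, a sodium-coupled transporter of small neutral amino acids induced by amino acid lack, had 12.78, 12.03, 12.35 and 12.77 on the same arrays in that order. The control and Ls-Parental were again level, with the miR-551a array 1.69-fold lower. SLC1A5, a glutamine transporter, differed by -0.59, and SLC38A1 (-0.56), SLC7A1 (-0.50), SLC1A4 (-0.49) and SLC3A2 (-0.43) were lower by less than 1.5-fold. SLC7A5, the leucine transporter that pairs with SLC3A2, differed by -0.06, and SLC7A11, the cystine transporter, by -0.16. SLC6A6, the taurine transporter, was detected with miR-551a only.

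The aminoacyl-tRNA synthetases, which charge tRNAs with amino acids, split between cytosol and mitochondria. Of 19 detected cytosolic enzymes 13 were lower, with a median of -0.23, and of 15 mitochondrial enzymes 5 were lower, with a median of 0.13. Over all genes 48.84% were lower. CARS1, the cysteinyl enzyme, had 9.32 in the control, 8.51 with miR-551a, 8.43 with miR-483 and 9.69 in Ls-Parental. MARS1, the methionyl enzyme, had 10.25, 9.58, 9.59 and 10.82. For these 2 enzymes the 2 microRNA arrays differed from each other by less than 0.1 and both lay under the other arrays. GARS1 (-0.52), NARS1 (-0.47), EPRS1 (-0.37) and YARS1 (-0.35) followed, while FARSA (0.39), RARS1 (0.21), FARSB (0.17), QARS1 (0.04), VARS1 (0.04) and KARS1 (0.03) were not lower. Among the mitochondrial enzymes WARS2 was furthest lower (-0.46) and LARS2 furthest higher (0.27).

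**Figure D3:**
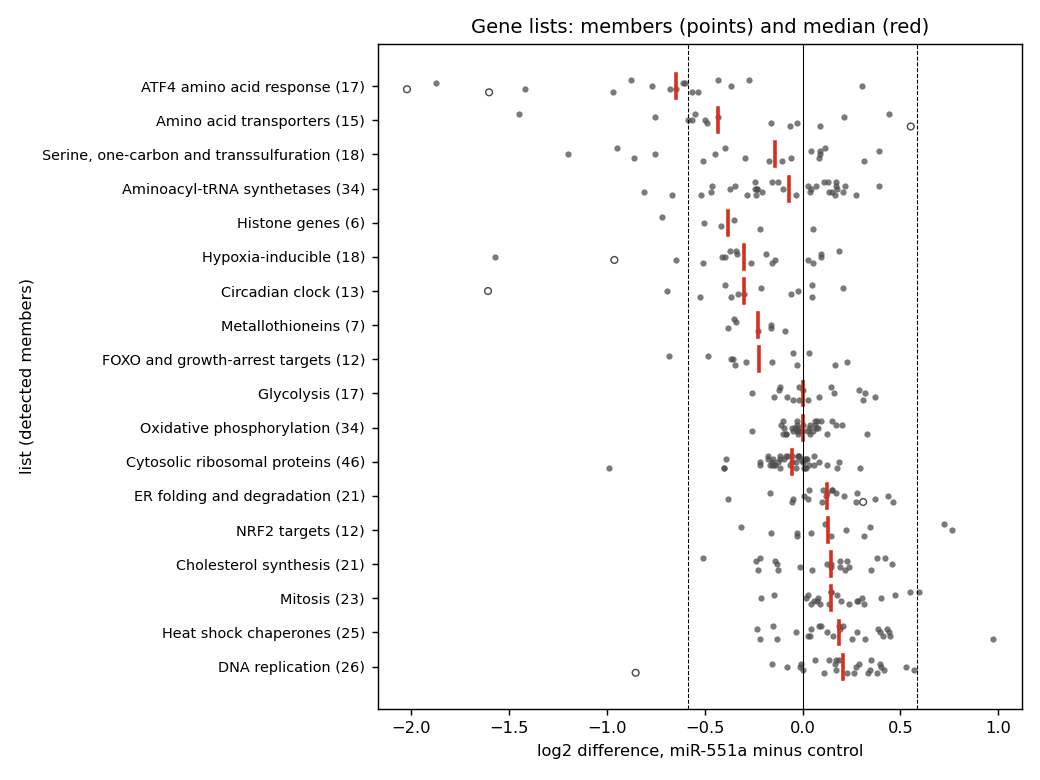
Log2 difference between the miR-551a and control arrays (horizontal axis) for the detected members of 18 gene lists, 1 point per gene, with the median of each list as a red bar. Filled points are genes detected on both arrays, open points genes not detected on both, and dashed lines mark 1.5-fold. The ATF4 list lies furthest to the left, with a median of -0.65, and DNA replication furthest to the right, with 0.21.

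As these lists hold known targets of ATF4, RefSeq promoter windows (GRCh38.p14, 250 bases before to 50 after each annotated start) were searched on both strands for 7 motifs, chosen with these differences already known. A C/EBP-ATF response element, written TGATGNAA, was found for 17 of the 118 genes with a window that both arrays detected and that lay at least 1.5-fold below the control (14.4%). Of all 7582 genes detected on both arrays with a window, 208 held it (2.74%), and of the 59 genes at least 1.5-fold higher, 0 held it. Counted per window, the shares were 9.52% of the lower genes' windows and 2.05% of all windows of genes detected on both arrays. Over all 27305 genes with a window the share was 4.46%. A match is a description of letters and not a bound site.

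Read from the side of the promoter, 136 of the 208 genes with a match were lower with miR-551a, with a median of -0.11, and 17 were at least 1.5-fold lower (8.17%). Of the 7374 genes without one, 101 were at least 1.5-fold lower (1.37%) and the median was 0.00. In the 4 amino acid lists together, all 16 genes with a match were lower, with a median of -0.49. Of the 51 without one, 27 were lower, with a median of -0.03. At least 1.5-fold lower were 5 of the 16 (31.2%) and 11 of the 51 (21.6%). By list this share was 50% with a match and 60% without in the ATF4 list, and 20% and 25% among transporters. It was 50% and 27.3% in the list of serine, one-carbon and transsulfuration genes, and 28.6% and 0% among synthetases. Among the synthetases, the 7 with a match, AARS1, CARS1, GARS1, IARS1, MARS1, NARS1 and TARS1, were all lower with a median of -0.47, and of the 22 without one, 8 were lower with a median of 0.09. In the ATF4 list itself 2 genes detected on both arrays had a match and 10 had none, and the latter still had a median of -0.61. Outside the 4 lists, 12 of 192 genes with a match were at least 1.5-fold lower (6.25%), against 90 of 7323 without one (1.23%).

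The windows shown are those of the named amino acid genes with a match, each 5′ to 3′ on the strand of its gene with the matched letters in capitals. Counting the base just before the start site as -1, the match begins at -68 in ASNS, at -191 from the ATF3 start shown, at -209 in CHAC1 and at -97 in SLC1A5. In CARS1 (-2) and MARS1 (-4) it spans the start site itself.
ASNS chr7:97872359-97872658, minus strand: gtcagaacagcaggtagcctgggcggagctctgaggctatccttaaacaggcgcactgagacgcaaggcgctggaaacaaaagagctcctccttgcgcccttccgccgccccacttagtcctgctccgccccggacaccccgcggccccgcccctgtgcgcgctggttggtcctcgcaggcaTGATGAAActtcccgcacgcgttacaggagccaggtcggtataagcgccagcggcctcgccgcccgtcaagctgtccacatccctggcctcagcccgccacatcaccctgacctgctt
ATF3 chr1:212565157-212565456, plus strand: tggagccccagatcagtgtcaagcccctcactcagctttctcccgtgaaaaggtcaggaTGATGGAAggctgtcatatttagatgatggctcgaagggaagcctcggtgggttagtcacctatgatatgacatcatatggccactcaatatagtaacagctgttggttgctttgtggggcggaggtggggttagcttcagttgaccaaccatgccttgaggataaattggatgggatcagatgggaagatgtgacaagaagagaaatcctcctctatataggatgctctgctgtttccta
CHAC1 chr15:40953221-40953520, plus strand: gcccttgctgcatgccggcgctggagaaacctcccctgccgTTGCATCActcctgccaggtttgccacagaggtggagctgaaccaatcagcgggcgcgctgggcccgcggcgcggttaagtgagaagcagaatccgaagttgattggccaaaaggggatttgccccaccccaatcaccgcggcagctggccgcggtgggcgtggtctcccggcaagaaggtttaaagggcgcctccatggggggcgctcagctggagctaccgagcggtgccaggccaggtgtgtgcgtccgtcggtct
CARS1 chr11:3057374-3057673, minus strand: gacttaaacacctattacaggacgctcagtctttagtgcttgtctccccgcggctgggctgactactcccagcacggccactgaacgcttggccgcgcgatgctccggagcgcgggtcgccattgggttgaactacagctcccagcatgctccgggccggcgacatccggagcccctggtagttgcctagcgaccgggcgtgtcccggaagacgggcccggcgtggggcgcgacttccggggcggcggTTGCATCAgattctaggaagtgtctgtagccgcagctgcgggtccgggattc
MARS1 chr12:57487818-57488117, plus strand: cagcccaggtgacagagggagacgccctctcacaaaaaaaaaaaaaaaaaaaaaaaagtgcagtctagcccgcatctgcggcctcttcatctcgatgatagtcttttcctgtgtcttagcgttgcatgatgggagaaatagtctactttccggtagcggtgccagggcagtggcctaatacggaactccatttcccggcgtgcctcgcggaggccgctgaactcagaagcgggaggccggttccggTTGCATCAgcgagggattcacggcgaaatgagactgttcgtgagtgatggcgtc
SLC1A5 chr19:46784765-46785064, minus strand: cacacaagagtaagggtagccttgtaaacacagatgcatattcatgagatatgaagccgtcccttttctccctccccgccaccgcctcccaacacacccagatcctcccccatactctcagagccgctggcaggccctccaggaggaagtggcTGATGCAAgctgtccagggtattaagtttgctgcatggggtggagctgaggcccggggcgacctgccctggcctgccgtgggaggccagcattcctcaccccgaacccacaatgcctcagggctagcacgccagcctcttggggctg
The ASNS, ATF3 and SLC1A5 windows carry TGATGNAA on the strand of the gene, and those of CHAC1, CARS1 and MARS1 its reverse complement. Other genes at least 1.5-fold lower with a match, named here after their values were seen, were USH1C (-0.90), FUT1 (-0.81), C1orf54 (-0.76), BCAR3 (-0.73), KLF12 (-0.69), GHR (-0.63), ZNF577 (-0.60) and DNASE2 (-0.60). IFRD1 (-1.08), a transcriptional co-regulator, AJUBA (-1.03), an adaptor of cell junctions, TMEM154 (-0.99) and SPRED2 (-0.71) had one too.

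The other motifs separated the groups less. An AP-1 site (TGANTCA) was found for 14 of the 118 lower genes (11.9%) and 7% of genes detected on both arrays. An antioxidant response element was found for 6 lower genes (5.08%), 4 higher genes (6.78%) and 3.96% of those detected on both arrays. A cyclic AMP response element (TGACGTCA) was found for 3.39% of the lower genes against 4.12%, an E-box (CACGTG) for 10.2% against 13.4%, and a CCAAT box (CCAAT) for 47.5% against 44.4%. A heat shock element was found for 5 of 23 heat shock chaperone genes with a window and for 0.501% of genes detected on both arrays. A match to TGATGNAA and a match to TGANTCA can lie in 1 window, and E-box matches read the same on both strands.

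**Figure D4:**
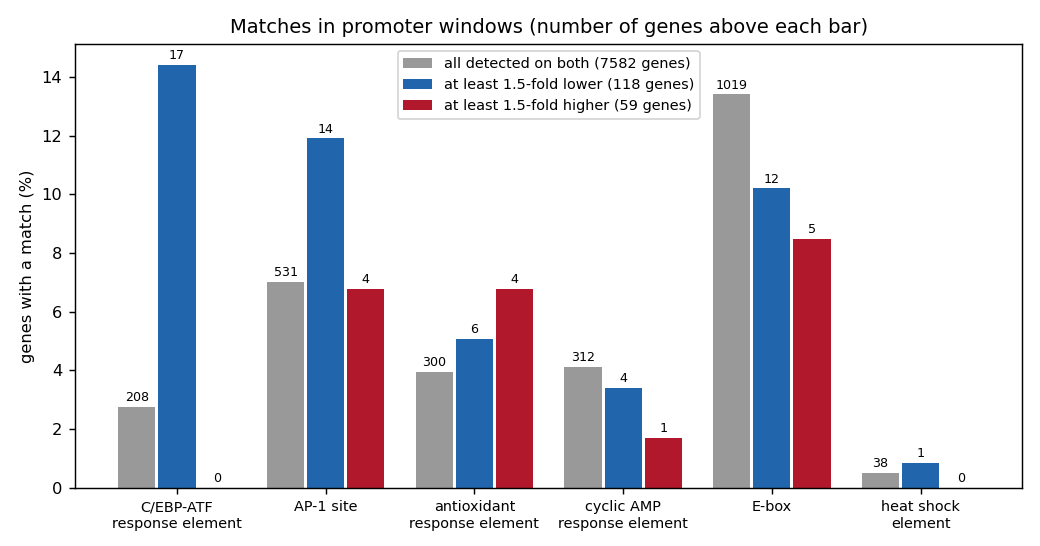
Percent of genes with a match to 6 motifs in their promoter windows (vertical axis, from 0) for all genes detected on both arrays, for those at least 1.5-fold lower and for those at least 1.5-fold higher with miR-551a. Numbers above the bars are genes with a match. The C/EBP-ATF response element stands at 14.4% of the lower genes and 2.74% of all.

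Several genes outside the amino acid lists were among the furthest lower. TSC22D3, known as GILZ, a leucine zipper protein induced by glucocorticoids and FOXO factors, had 9.62 in the control, 8.04 with miR-551a, 9.07 with miR-483 and 9.37 in Ls-Parental. The miR-551a array was lowest, 2.99-fold under the control, and a second probe differed by -1.97. The other glucocorticoid-response genes did not share a direction, with FKBP5 at 0.41, SGK1 at 0.42, DUSP1 at 0.03 and KLF9 at -0.54, and PER1, also a clock gene, at -1.61 as measured and not detected with miR-551a. The median of 9 detected genes was 0.03, and it was -0.54 at a Detection score above 0.95, -0.39 with no detection filter and -0.25 at a mean log2 level of at least 8. Of the FOXO and growth-arrest list, 9 of 12 were lower (median -0.22), against 48.84% of all genes. ARRDC4, an arrestin-domain protein of glucose uptake, differed by -0.68. CDKN1B, an inhibitor of cyclin-dependent kinases, differed by -0.48 and TXNIP by -0.37.

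Hypoxia-inducible genes were lower in 13 of 18 cases, with a median of -0.30, where 48.84% of all genes were lower. COXFA4L2, formerly NDUFA4L2, which restrains mitochondrial complex I activity in hypoxia, had deposited signals of 361.7 in the control and 159.9 with miR-551a, and log2 levels of 6.43 with miR-551a, 6.82 with miR-483 and 8.13 in Ls-Parental. It was 2.97-fold lower with miR-551a than in the control, both microRNA arrays lay far under Ls-Parental, and the miR-551a level was near the lowest detected. BNIP3 (-0.39), NDRG1 (-0.34) and HIF1A (-0.41, with 0.06 by its second probe) were lower by less than 1.5-fold, and the glucose transporter gene SLC2A1 differed by -0.19. Glycolysis genes, many of which hypoxia also induces, had a median of 0.00 over 17 genes, none past 1.5-fold, with LDHA at 0.03 and GAPDH at -0.11.

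Circadian clock genes were lower in 10 of 13 cases (median -0.30), against 48.84% of all genes. PER1, a clock repressor, was detected in the control only, at 6.81, and read 5.20 with miR-551a, 5.37 with miR-483 and 5.65 in Ls-Parental. It was at least 1.54-fold lower with miR-551a, and the control stood apart from all 3 other arrays. NFIL3, a repressor of D-box genes, differed by -0.69 and BHLHE40 by -0.53, whereas CLOCK, DBP and HLF lay between -0.02 and 0.05. All 7 detected metallothionein genes, which encode zinc-binding proteins, were lower by less than 1.5-fold, from MT1F at -0.38 to MT1X at -0.09. Of 6 detected replication-dependent histone genes 5 were lower (median -0.38), furthest H2BC21 at -0.72. Histone genes have near-identical copies, and probes may read more than 1 of them.

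Growth factor and immediate early genes differed in both directions. HBEGF, a ligand of the EGF receptor, was 1.93-fold lower (8.12 in the control, 7.17 with miR-551a), and EREG and TGFA, ligands of the same receptor, differed by 0.07 and 0.25. SPRED2, an inhibitor of RAS-ERK signalling, differed by -0.71 and SPRY2 by -0.53, while DUSP4, an ERK phosphatase, differed by 0.58. EGR1, an immediate early transcription factor, was 1.58-fold lower, FOSB differed by 0.59 near the lowest detected level, and FOS, JUN and JUNB lay between 0.02 and 0.05. CLIC4, a chloride intracellular channel protein, had 12.16 in the control, 11.30 with miR-551a, 11.69 with miR-483 and 12.79 in Ls-Parental, and its second probe differed by -0.91. KIT, the stem cell factor receptor, was 1.66-fold lower, with -0.61 by its second probe. SP8, a zinc finger transcription factor, was 2.17-fold lower, with -1.62 by its second probe, and TUBE1, epsilon tubulin, 2.04-fold lower, with -0.70.

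RPL7A, a protein of the large ribosomal subunit, had a level of 11.02 in the control, 10.04 with miR-551a, 10.45 with miR-483 and 11.55 in Ls-Parental, 1.98-fold lower with miR-551a. The other 45 detected genes of the cytosolic ribosomal protein list lay between -0.40 and 0.30, and the median of all 46 was -0.06. RPL23AP32, a gene outside that list named after its value was seen, differed by -0.73. Ribosomal protein genes have many processed pseudogenes, so the transcripts this probe reads are uncertain. Further genes among the furthest lower were ZFP1, a zinc finger gene (-1.25, with -0.08 by its second probe), KIF21B, a kinesin motor (-1.24), PYROXD1, an oxidoreductase (-1.24), THBS4, an extracellular thrombospondin (-1.03), and RPS6KA2, a kinase downstream of ERK (-0.91). With miR-551a KIF21B (6.48), PYROXD1 (6.36) and THBS4 (6.47) lay near the lowest level detected there, 6.19. With miR-483 these 3 differed from the control by -1.40, -0.645 and -1.13. THBS4 was lowest in Ls-Parental, at 5.40.

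Among the higher genes were chaperones of the cytosol. HSPA1B, an inducible HSP70, had 12.35 in the control, 13.32 with miR-551a, 12.89 with miR-483 and 12.17 in Ls-Parental. The miR-551a array was highest, 1.96-fold above the control, in a brightness range where 3 of 1057 genes were at least 1.5-fold higher. HSPA1B and its neighbour copy HSPA1A encode almost the same protein, and the probe may read both. Of 25 detected heat shock chaperone genes 20 were higher (median 0.19), against 4901 of all 9619 genes, although HSPA1B alone passed 1.5-fold. BAG3 (0.44), HSPA4 (0.44), DNAJB1 (0.43), HSPH1 (0.41), HSPA8 (0.40) and STIP1 (0.39) followed, and HSPA9, the mitochondrial HSP70, was lower at -0.23. Chaperones and degradation factors of the endoplasmic reticulum were higher in 17 of 21 cases (median 0.13), none by 1.5-fold, with HSPA5, known as BiP, at 0.46, CRELD2 at 0.44 and MANF at 0.37. XBP1, the transcription factor of the unfolded protein response, was lower at -0.38, and HSP90B1 differed by -0.05.

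SQSTM1, the autophagy receptor p62, had 11.31 in the control, 12.23 with miR-551a, 11.94 with miR-483 and 11.97 in Ls-Parental. The control was the lowest of the 4, 1.88-fold below miR-551a. The other 11 autophagy genes lay between -0.39 (MAP1LC3B) and 0.22 (ATG7). Among targets of NRF2, the transcription factor of the oxidative stress response, the aldo-keto reductases AKR1C2 and AKR1B10 were 1.70-fold and 1.65-fold higher. AKR1C2 had 11.31 in the control, 12.08 with miR-551a, 11.55 with miR-483 and 10.10 in Ls-Parental, so the order ran from Ls-Parental at the bottom to miR-551a at the top. The classical targets NQO1 (-0.03), TXNRD1 (0.04) and SRXN1 (-0.31) were not higher, and the median of 12 was 0.13. AKR1C2 is nearly identical in sequence to AKR1C1, and probes for this family are uncertain. Every other AKR1C2 probe was detected on neither array.

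Proliferation genes were slightly higher together, where 4901 of all 9619 genes were higher. Of 26 detected DNA replication genes 20 were higher (median 0.21), with MCM10 at 0.57, GINS3 at 0.53, CDC6 at 0.40 and RRM2 at 0.35, and MCM3 and PCNA, 2 of the brightest, at 0.00 and 0.06. GINS1 was detected in the control only (-0.85 as measured). Of 23 mitosis genes 21 were higher (median 0.15), and BUB1B, a kinase of the spindle checkpoint, was the furthest at 1.51-fold. In the regulatory cap of the proteasome 13 of 14 genes were higher (median 0.14), and in the 20S core 8 of 13 (median 0.05). Cholesterol synthesis (median 0.14), splicing (0.13) and microRNA machinery (0.14) were higher by similar amounts. In the last, 10 of 13 detected processing and Argonaute genes were higher, none by 1.5-fold.

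The gene furthest higher among those detected on both arrays was KANK2, which links talin to the cortical cytoskeleton, with 6.43 in the control, 7.75 with miR-551a, 6.77 with miR-483 and 6.73 in Ls-Parental. Only the miR-551a array stood apart, 2.49-fold above the control, whose level was close to the lowest detected there, 6.38. TNIP2, an inhibitor of NF-kB signalling, was 2.08-fold higher (6.59 in the control and 7.64 with miR-551a), and TAGLN, an actin-binding protein, 1.77-fold higher (7.58 and 8.40). JMJD6, SNORD35A, WDR76, PALD1, CCDC107 and HASPIN were 1.80-fold to 1.99-fold higher, with control levels from 6.41 to 7.14. DCAF11 was 1.74-fold higher, with 0.15 by its second probe.

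Where a gene was detected on 1 array only, the fold is a bound against the lowest detected level of the other array or the gene's own reading there, and makes no allowance for noise. By this rule 162 lower (1.68%) and 91 higher genes (0.946%) passed 1.5-fold, counting those detected on both arrays at their measured value. At 2-fold these counts were 18 (0.187%) and 2 (0.0208%). CBARP, a regulator of calcium channels, was at least 2.20-fold lower, PCDH9, a protocadherin, at least 1.46-fold, and ULBP1, a ligand of the NKG2D receptor that ATF4 is known to activate, at least 1.41-fold. ULBP1 had 6.68 in the control, 5.07 with miR-551a, 5.99 with miR-483 and 8.23 in Ls-Parental. In the other direction MAGEA11 was at least 1.30-fold higher, YJU2 at least 1.21-fold, ZNF57 at least 1.13-fold, NOL9 at least 1.04-fold and GFER at least 1.02-fold. The bounds were thus larger for the lower genes named than for the higher ones. The lowest detected level behind them was 6.19 with miR-551a for the lower genes and 6.38 in the control for the higher ones.

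Other probes of the same gene were the one repeated measurement of a transcript. They share the RNA and the array, so they do not replicate the culture. Of 2128 genes with at least 2 probes detected on both arrays, the second probe had the direction of the brightest in 60.57%. For the 32 of these at least 1.5-fold lower by the brightest probe, the second had the same direction in 25 and passed 1.5-fold in 9, and its median was -0.36. For the 7 at least 1.5-fold higher, the second had the same direction in 4 and passed 1.5-fold in 0, with a median of 0.03. Counting the probes that both arrays detected, every one was at least 1.5-fold lower for 8 genes (0.376%), namely TSC22D3, SP8, TUBE1, TMEM154, CLIC4, KIT, SERPINI1 and SPATA7. Every such probe was at least 1.5-fold higher for 0 genes. Probes detected on neither array were left out of this count, and TSC22D3, SP8 and SPATA7 have such probes.

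**Figure D5:**
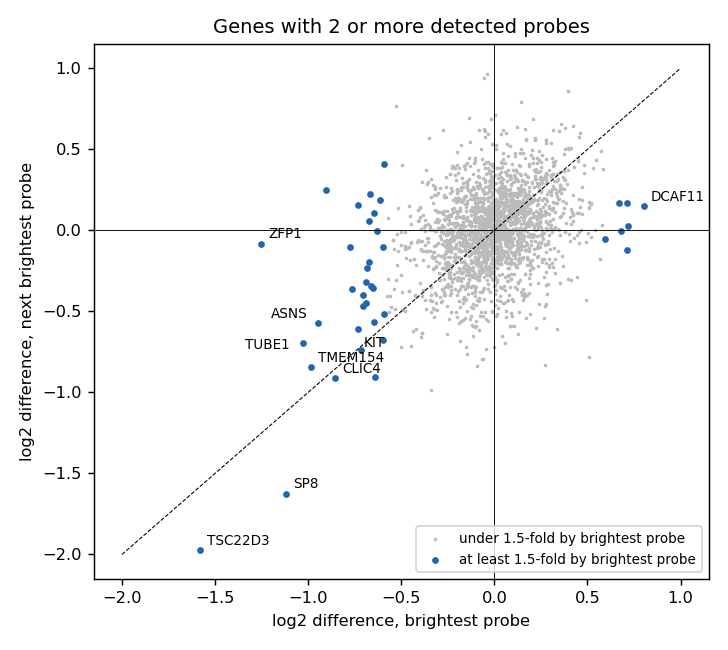
Log2 difference by the next brightest probe (vertical axis) against that by the brightest probe (horizontal axis) for the 2128 genes with at least 2 probes detected on both arrays, 1 point per gene. Blue points passed 1.5-fold by the brightest probe, and the dashed line marks equal values. TSC22D3 and SP8 lie furthest down by both probes, while ZFP1 and DCAF11 lie near 0 by the second.

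Genes of other functions lay close to 0. Oxidative phosphorylation had a median of 0.00 over 34 genes and mitochondrial ribosomal proteins 0.01 over 24, with no gene past 1.5-fold in either. Of 50 lists with at least 3 detected members, 30 had a median between -0.1 and 0.1, 8 had one of at most -0.2, and 1 had one of at least 0.2. EPCAM, the epithelial adhesion molecule, differed by -0.06, CD44 by 0.03 and CCND1 by -0.03. CKB, the brain-type creatine kinase, had 10.41 in the control, 9.96 with miR-551a, 9.83 with miR-483 and 9.95 in Ls-Parental, so the control was above 3 arrays that lay within 0.15 of each other. It was 1.36-fold lower with miR-551a, while CKMT1A, a mitochondrial creatine kinase, differed by -0.13.

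The miR-483 culture was set against the same control array, so its differences share that array's error with those above and the 2 sets are given side by side without a measure of likeness. For DDIT4 the difference from the control was -1.87 with miR-551a and -0.64 with miR-483. The values were -1.58 and -0.55 for TSC22D3, -1.42 and -0.53 for ATF3, -0.95 and -0.73 for ASNS, and -0.81 and -0.90 for CARS1. By the second ASNS probe the order was the other way round. Its level was 9.44 in the control, 8.87 with miR-551a and 7.46 with miR-483. CHAC1 had 7.13 with miR-483 and was not detected with miR-551a, so that its distance between the microRNA arrays is known only as a bound. For HSPA1B the values were 0.97 and 0.54, for SQSTM1 0.91 and 0.63, and for KANK2 1.31 and 0.33. Whether any of these pairs differs beyond the spread between cultures was not tested, since each culture had 1 array.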

How the data were processed

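RNA from 4 cultures was measured on Illumina bead arrays, 1 array per culture. Per the labels' protocols, total RNA came from a miRVANA kit, and a MessageAmp kit gave the biotinylated cRNA. Per the file headers, the deposited table gives a signal, the intensity of each probe on a linear scale without normalization between arrays, and a Detection score, a fraction from 0 to 1. The authors' processed intensity values equal these signals times 1 factor per array (1.11 for miR-551a and 1.00 for the control). The sources used here do not state the software behind them. The files hold no bead numbers, which leaves no interval within an array.

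The neqc function of limma 3.58.1 (R 4.3.3) was run on these signals with 1 minus the Detection score as detection p. It applies normexp correction, an offset of 16 and quantile normalization, here to all 4 arrays at once, and returns log2 levels. The probe with the highest mean level over the arrays stood for its gene. Gene names came from the platform annotation, updated by gene number through RefSeq (GRCh38.p14): 27578 probes had 1 gene, of which 27541 matched, 13 had several and 21212 had none. The steps were tested on simulated data.

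Named genes were CKB; the 20 furthest lower and 12 furthest higher detected on both arrays; the 5 largest bounds each way with a Detection score of at most 0.95 on the other array; genes whose probes, where both arrays detected them, all passed 1.5-fold; and, per list, up to 4 members past 1.5-fold or else the 2 brightest. Further list members are named to account for the lists and were chosen after their values were seen. The genes compared, the 51 lists and the motifs were chosen with earlier results of these data known. Other settings tried were the background correction and offset, the normalization, the detection filter, the reading of several probes, bounds and the authors' values.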

Additional observations from a re-analysis of the deposited data

Results flagged for a closer look

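Probes that the annotation used here leaves without a gene were outside the comparison. Of 1986 such probes detected on both arrays, the 1.5-fold threshold was passed by 34 lower (1.71%) and 19 higher probes (0.957%) with miR-551a, close to the shares of named genes. Signal above the control in data outside the comparison singled out ILMN_1687757, with a log2 difference of 0.8453, and ILMN_1664682, with 0.8475. Further from 0 in the other direction lay ILMN_1702933, with -1.58 (log2 level 9.14 in the control and 7.56 with miR-551a), the only such probe past 2-fold, and ILMN_1765670, with -0.91. Each has 1 array per culture behind it and no replicate.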

How the results depend on the processing

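As reported, 210 lower and 195 higher genes passed 1.5-fold and 35 lower and 21 higher genes passed 2-fold. Under other settings the counts in the same order were 72, 30, 6 and 0 without background correction, 78, 27, 8 and 0 with the authors' processed values, and 123, 82, 15 and 2 with an offset of 50. They were 138, 81, 14 and 2 for genes detected on both arrays, and 73, 33, 6 and 0 for a mean log2 level of at least 8. With bounds the last 3 were 91, 18 and 2. At a Detection score above 0.95 the first 3 were 472, 394 and 85, and with no detection filter 536, 402 and 85. These filters change how many dim genes are counted. The median of the glucocorticoid-response list, 0.03 as reported, was -0.54 at a Detection score above 0.95, -0.39 with no filter and -0.25 at a mean level of at least 8. That of the circadian list, -0.30 as reported, was -0.056 with no filter, and that of the HOXB cluster, -0.23 as reported, was -0.48 for genes detected on both arrays and at a mean level of at least 8. The cause was not tested. The ATF4 list median ranged from -0.68 to -0.60 over the 12 settings, the transporter median from -0.50 to -0.32, the heat shock median from 0.13 to 0.20 and the DNA replication median from 0.17 to 0.24, while medians of glycolysis, oxidative phosphorylation and mitochondrial ribosomal proteins took both signs. All 68 named genes past 1.5-fold kept their direction under the 8 settings that do not filter genes, and 52 remained past 1.5-fold without background correction and 52 with the authors' values. The 68 were taken by their differences on these same arrays, which every setting reuses, and a bound cannot reverse a direction. No paired analysis was possible because each culture had 1 array. For dim genes the signal over background limits the fold, and with 1 array per culture the spread between cultures is unknown, so any other difference between the cultures or arrays cannot be told apart from that of miR-551a.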

Other observations

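Among 112 groups of at least 10 detected genes whose symbols share their leading letters, a grouping made after the data were seen, the small nucleolar RNA genes named SNORD had the highest median difference, 0.27 over 27 genes. These RNAs guide the methylation of ribosomal RNA and are processed from introns of host genes. Of the 27, 23 were higher with miR-551a and 3 were at least 1.5-fold higher. Of these 3, SNORD35A and SNORD100 (6.59 in the control) lay near the lowest level detected in the control, 6.38. SNORD14B was not detected in the control, and by bound it was at least 1.20-fold higher. SNORD46, SNORD15B and SNORD55 were also detected with miR-551a only, so these and SNORD14B entered the group through the array where they were higher. The count of 23 and the median include them. Whether the probes read the processed RNAs or transcripts of the host genes was not tested. SNORD35A was the furthest, with 6.46 in the control, 7.46 with miR-551a, 7.43 with miR-483 and 7.71 in Ls-Parental, so the control was the low array and the 3 others lay together. Next came the UTP genes, whose proteins process the small ribosomal subunit's RNA, with 9 of 11 higher and a median of 0.27, and the PSMD genes of the proteasome cap, with 11 of 12 higher and a median of 0.24. The lowest group was CLDN, the claudins of tight junctions, with 7 of 10 lower and a median of -0.19. Over the 112 groups the middle median was 0.01.

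Over all genes 2.18% were at least 1.5-fold lower and 2.03% higher. By chromosome, in 3 chosen from 23 after their counts were seen, 1.5-fold was passed by 14 lower (3.33%) and 2 higher (0.475%) of 421 genes on chromosome 5, while on chromosome 10 the counts were 4 and 13 of 380 (1.05% and 3.42%). Chromosome 19 had 26 of 655 lower (3.97%) and 19 higher (2.9%). These chromosome counts take in genes that only 1 array detected. In the whole comparison, the control array did not detect 114 of 195 higher genes, and the miR-551a array did not detect 72 of 210 lower ones. Whether the chromosome contrasts hold among genes detected on both arrays was not tested.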
